A study of Homo sapiens with 18 samples.

Results

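U937 cells treated with decitabine and then with decitabine plus panobinostat were set against untreated U937 cells, with 3 arrays in each group out of the 18 arrays of the study. The members described are all genes with a probe set that carries a single gene symbol: 14884 genes, read by 16098 of the 48226 probe sets of the Affymetrix Human Gene 2.0 ST array. U937 is an established human line of monocyte-like cells from a histiocytic lymphoma. The combination group (title code D50P8) received 3 pulses of decitabine (5-aza-2'-deoxycytidine) of 24 h each, and panobinostat for 24 h together with the last pulse. The control group (ctrl) received neither drug. The numbers 50 and 8 in the title code come without a unit, so no dose is given. Arrays of decitabine alone, panobinostat alone and decitabine plus valproic acid, 3 of each, serve as points of comparison for the combination, and the deposited table also holds 3 arrays of valproic acid alone. Every group was grown in the same medium with 10% fetal calf serum. Values are log2 signals, so a difference of 1 is a 2-fold difference. Nothing in the labels tells separate cultures from repeats of one culture, so p-values measure the spread between these arrays, which may be technical.

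Decitabine is a cytidine analogue that is built into DNA and traps DNA methyltransferases, so methyl groups are lost as cells divide and genes silenced by promoter methylation can be transcribed again. Panobinostat is a hydroxamate that blocks histone deacetylases, which leaves histones more acetylated and chromatin more open. In leukaemia cells decitabine is known for switching on germline genes. Both kinds of drug are known there for switching on interferon and differentiation genes and for slowing growth programmes such as that of MYC.

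The start regions of 4 genes are shown first, MAEL and DAZL as germline genes known to be silenced by promoter methylation, and TKTL1 and CD34 as the genes that rose most. Each stretch is the 200 bases directly before the RefSeq transcription start in GRCh38.p14, written 5′ to 3′ on the strand of the gene, with CpG dinucleotides, the sites of DNA methylation, in capitals. MAEL (chr1:166975382-166975581, plus strand) holds 40 CpGs and DAZL (chr3:16605424-16605623, minus strand) holds 27. TKTL1 (chrX:154295595-154295794, plus strand) holds 10 and CD34 (chr1:207911126-207911325, minus strand) holds 12.
MAEL: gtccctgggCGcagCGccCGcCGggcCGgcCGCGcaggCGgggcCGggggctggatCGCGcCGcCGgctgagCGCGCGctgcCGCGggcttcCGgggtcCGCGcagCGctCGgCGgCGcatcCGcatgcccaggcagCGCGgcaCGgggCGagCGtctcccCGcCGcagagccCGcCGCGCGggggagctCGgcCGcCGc
DAZL: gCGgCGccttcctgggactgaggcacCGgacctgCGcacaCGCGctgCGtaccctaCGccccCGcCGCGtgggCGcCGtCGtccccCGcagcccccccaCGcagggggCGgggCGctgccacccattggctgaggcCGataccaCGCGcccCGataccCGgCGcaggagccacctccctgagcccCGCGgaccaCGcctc
TKTL1: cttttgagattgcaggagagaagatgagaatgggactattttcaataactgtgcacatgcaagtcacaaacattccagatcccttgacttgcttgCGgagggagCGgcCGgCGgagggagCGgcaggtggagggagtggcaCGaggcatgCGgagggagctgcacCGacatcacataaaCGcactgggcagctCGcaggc
CD34: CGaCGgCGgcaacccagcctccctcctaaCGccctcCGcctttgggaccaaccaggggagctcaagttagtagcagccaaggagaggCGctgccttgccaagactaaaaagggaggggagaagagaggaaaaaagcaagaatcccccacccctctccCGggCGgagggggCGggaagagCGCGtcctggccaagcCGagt

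For 4 interferon-induced genes the stretch around the interferon-stimulated response element core is shown, since this element was frequent among the called interferon effectors. The capitals mark the core, GAAA and GAAA with any 2 bases between them, on either strand. IFI44L lies at chr1:78620269-78620308 (plus strand), IFIT5 at chr10:89414508-89414567 (plus strand, 2 cores), SAMD9 at chr7:93118091-93118130 (minus strand) and IFIT3 at chr10:89327826-89327899 (plus strand, 2 cores).
IFI44L: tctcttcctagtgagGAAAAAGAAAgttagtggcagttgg
IFIT5: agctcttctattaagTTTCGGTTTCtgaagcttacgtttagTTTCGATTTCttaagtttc
SAMD9: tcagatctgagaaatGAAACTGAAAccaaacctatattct
IFIT3: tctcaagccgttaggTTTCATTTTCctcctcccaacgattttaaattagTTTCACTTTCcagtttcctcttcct

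For the genes that fell, the E-box CACGTG, the site bound by MYC with MAX, is shown in capitals in the 3 protein-coding genes with the largest falls among those that hold it in the 250 bases before a RefSeq start. For MTHFD1L that start is one of several and lies inside the gene's span given below. They were picked after their values were seen. MTHFD1L lies at chr6:150866317-150866352 (plus strand), IPO4 at chr14:24188825-24188860 (minus strand) and CCDC86 at chr11:60842073-60842108 (plus strand).
MTHFD1L: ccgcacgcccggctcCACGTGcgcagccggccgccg
IPO4: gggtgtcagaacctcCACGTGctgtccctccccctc
CCDC86: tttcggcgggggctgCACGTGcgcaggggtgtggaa

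Both microRNA genes among the largest falls of non-coding genes are given by their mature RNA, with the seed (bases 2 to 8) in capitals. Their seeds differ. The probe sets are named for the microRNA gene, and the level of the mature RNA was not measured by itself.
hsa-miR-4521: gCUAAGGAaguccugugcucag
hsa-miR-544b: aCCUGAGGuugugcauuucuaa

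The arrays of each group lay close together and the groups lay apart. Between a combination array and a control array, Pearson's r over the 14884 genes was 0.9608 to 0.9659, against 0.9886 to 0.9897 among the combination arrays and 0.9909 to 0.992 among the control arrays. The median gene signal was 4.69 to 4.72 in the combination arrays and 4.54 in each control array. Setting these medians equal would move every change by -0.17 on the log2 scale, so the changes below are relative to the deposited scale. A few lineage markers were read, which cannot establish the identity of the line by themselves. MPO, the peroxidase of primary granules, was bright on every array, at 11.35, 11.38 and 11.31 in the combination arrays and 12.31, 12.23 and 12.30 in the control arrays. CD14, a defining surface marker of blood monocytes, stayed between 3.27 and 3.44 in the combination arrays and between 3.39 and 3.57 in the control arrays, both below the median of 3.84 of the whole table. The basal keratin gene KRT5 (3.06 to 3.30 in the combination arrays, 3.10 to 3.27 in the control arrays) and the red-cell chaperone gene AHSP (3.14 to 3.43 in the combination arrays, 3.33 to 3.50 in the control arrays) were also below it.

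Decitabine plus panobinostat changed 3447 of the 14884 genes (23.2%) at a Benjamini-Hochberg adjusted p below 0.05 in limma, and such genes are named called below. Of these, 1668 (11.2%) were higher and 1779 (12%) were lower in combination-treated cells. The size of the change was not even between the directions: 666 genes (4.47%) rose and 478 (3.21%) fell at least 2-fold, 174 rose and 15 fell at least 4-fold, and 60 rose and 1 fell at least 8-fold. In 3353 of the 3447 called genes all 3 combination arrays lay above, or all below, the 3 control arrays, which held for 5308 (35.7%) of all genes. The median change over all genes was -0.02, the median SE of a change was 0.16, and the smallest called change was 0.23. With array medians set equal, 1176 genes were higher and 3325 lower, so that 26.1% of calls were higher, against 48.4% on the deposited scale. At least 2-fold, 506 genes were then higher and 754 lower. The median change over all genes was then -0.19, and the centred medians of the lists below are read beside it. Counts of called list members are read beside 11.2% of all genes higher and 12% lower.

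Signal before treatment differed between the genes that rose and those that fell. The genes at least 2-fold higher had a median signal of 6.70 in combination-treated cells and 4.61 in control cells, while those at least 2-fold lower had 6.39 in combination-treated cells and 7.82 in control cells. The median control signal of all genes was 4.53. A control mean above 8 was found for 6.91% of the genes that rose at least 2-fold, 43.3% of those that fell and 21.1% of all genes. Signals of different probe sets are not on a common scale of RNA amount, and a fall cannot be large where the signal already lies near the array's lowest values.

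**Figure D1:**
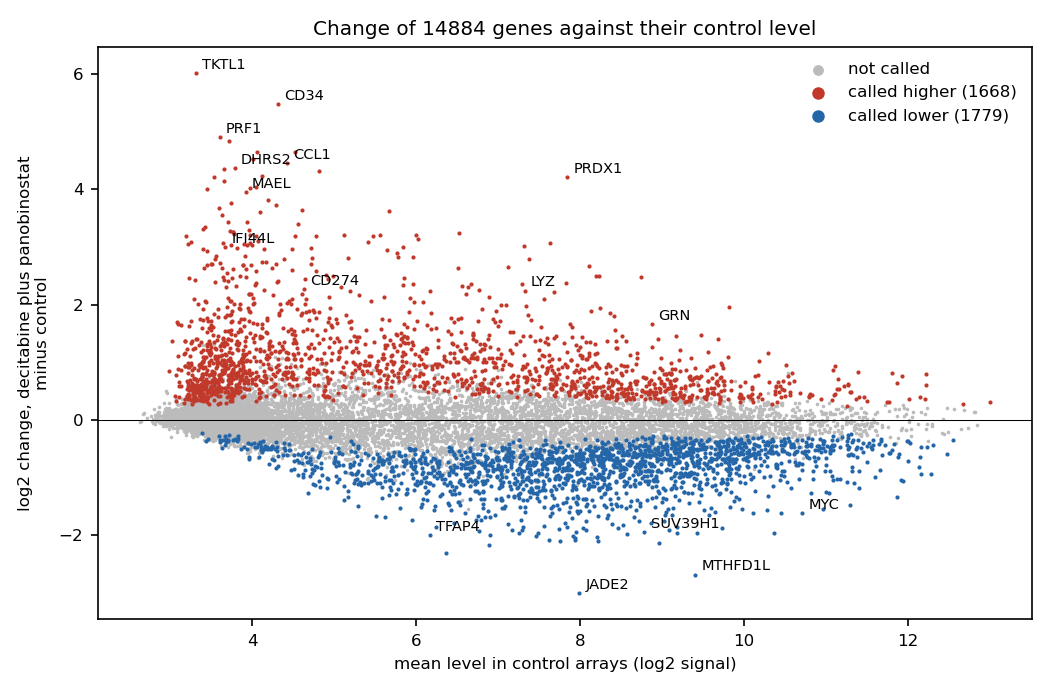
Change in signal (combination minus control, log2) of the 14884 genes against their mean signal in the 3 control arrays (log2), one point per gene, with called genes coloured by direction. Genes at least 2-fold higher have a median control signal of 4.61 and genes at least 2-fold lower one of 7.82; PRDX1 is a large rise, of 4.21, from a control signal between 7.56 and 8.07.

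The largest rise was that of TKTL1, a transketolase-like gene that is active in testis and in many tumours and lies at X:154295795-154330350 (GRCh38.p14). TKTL1 had a signal of 9.56, 8.96 and 9.49 in the combination arrays, against 3.13, 3.45 and 3.37 in the control arrays. Every combination array was far above every control array, a difference of 6.02 ± 0.34 (SE) on the log2 scale or 64.9-fold, with an adjusted p of 4.9e-09. CD34 (1:207880972-207911125), the surface marker of blood stem and progenitor cells, had 9.89, 9.73 and 9.77 in combination-treated cells and 4.49, 4.16 and 4.31 in control cells, a 44.6-fold rise (5.48 ± 0.28, adjusted p = 2.71e-09). PRF1 (10:70597348-70602741), which encodes the pore-forming perforin of killer lymphocytes, had 8.50, 8.55 and 8.50 in combination-treated cells, against 3.81, 3.48 and 3.53 in control cells. The combination arrays of PRF1 were within 0.05 of each other and 30.1-fold above the controls (4.91 ± 0.26, adjusted p = 3.85e-09).

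Other genes among the 15 largest rises belong to several tissues. The chemokine gene CCL1 had 9.0, 8.98 and 8.69 in combination-treated cells and 4.20, 4.97 and 4.11 in control cells, a rise of 4.46. PRDX1, which encodes an abundant peroxide-reducing peroxiredoxin, had 12.07, 11.96 and 12.13 in combination-treated cells and 8.07, 7.91 and 7.56 in control cells, a rise of 4.21. DHRS2, a dehydrogenase and reductase gene known for its response to deacetylase inhibitors, had 8.38, 7.98 and 8.10 in combination-treated cells and 3.61, 3.86 and 3.89 in control cells, a rise of 4.37. No combination array of these genes overlapped a control array, which was a condition for a place among the 15 largest rises or falls. ENPP2, the gene of the lysophospholipase autotaxin, rose by 4.15 and GPR34, a receptor for a lysophospholipid, rose by 4.64. KRT23, a type I keratin gene, rose by 4.23, and NPTX2, a secreted neuronal pentraxin gene, rose by 4.32. The vesicle protein genes SV2A and SYT11, both known from synapses, rose by 4.03 and 4.21. DCAF4L1 (4.65), PRAC1 (4.53) and BCAS1 (4.0) complete the set.

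**Figure D2:**
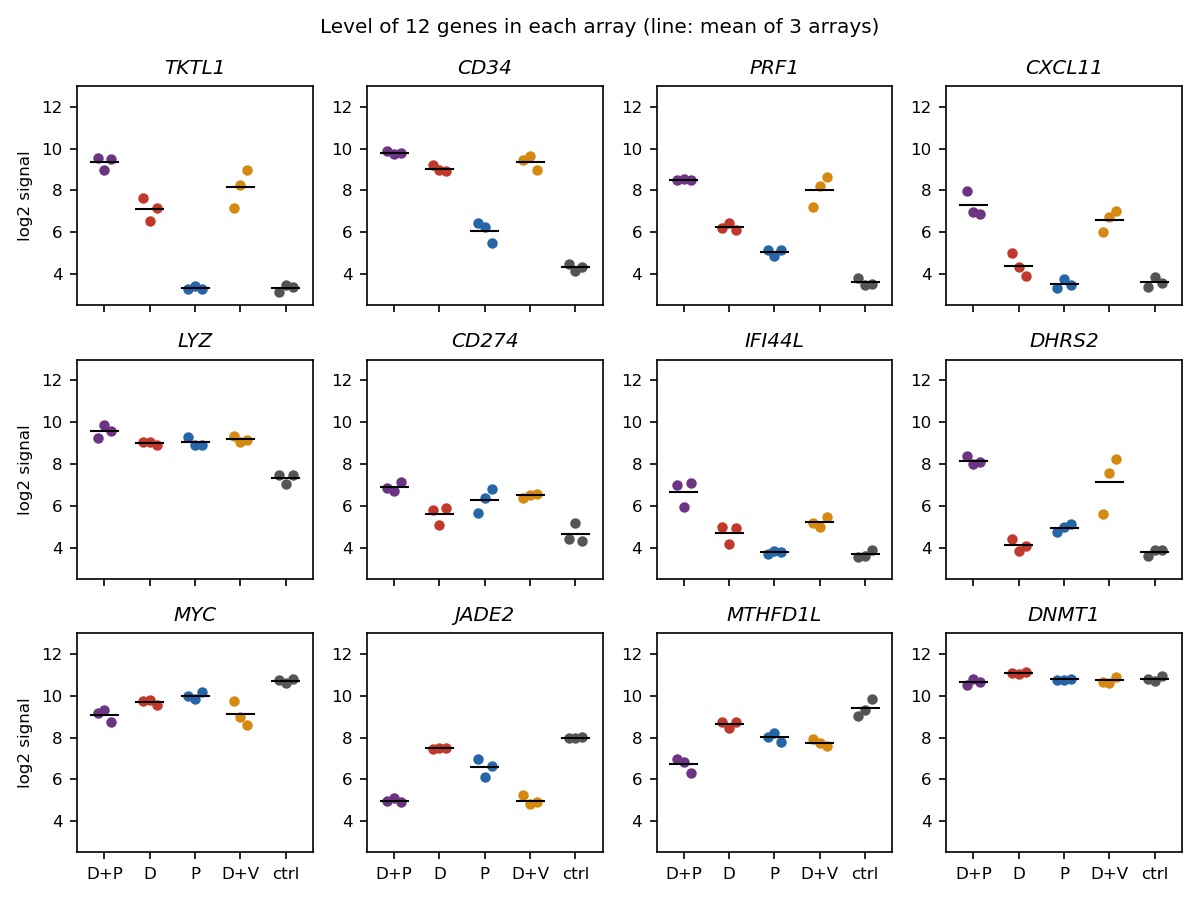
Signal (log2) of 12 genes on each array, one panel per gene, with the combination (D+P) at the left, then decitabine (D), panobinostat (P), decitabine plus valproic acid (D+V) and control (ctrl); points are arrays and lines are group means. TKTL1, CD34 and PRF1 lie above 8 on every combination array and below 5 on every control array, JADE2 and MTHFD1L lie lower in the combination than in control, and the 3 combination values of DNMT1 overlap those of control.

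The largest falls were smaller than the largest rises. JADE2, a subunit of a histone H4 acetyltransferase complex (5:134524009-134583227), was the single gene that fell at least 8-fold. Its signal was 4.95, 5.12 and 4.89 in the combination arrays, against 7.96, 7.98 and 8.04 in the control arrays (-3.01 ± 0.20, adjusted p = 2.13e-08). Neither group spread over more than 0.23 and the gap between them was wide. MTHFD1L, the mitochondrial formyltetrahydrofolate synthetase (6:150865702-151101887), had 7.0, 6.85 and 6.31 in combination-treated cells and 9.05, 9.34 and 9.84 in control cells (-2.69 ± 0.20, adjusted p = 9.78e-08). The lowest control array of MTHFD1L stayed about 2 above the highest combination array. FBXO10, an F-box gene of a ubiquitin ligase, fell by 2.17, and LANCL2 fell by 2.09. The importin gene IPO4 fell by 2.09 and the nucleolar protein gene CCDC86 by 2.05. UNG, which removes uracil from DNA, had 6.36, 6.55 and 6.89 in combination-treated cells, against 8.58, 8.31 and 8.84 in control cells, a fall by 1.98. TFAP4, a transcription factor gene activated by MYC, fell by 2.01, SNRPF, a core protein of spliceosomal particles, by 2.01, and LYAR, a nucleolar growth regulator, by 1.97.

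**Figure D3:**
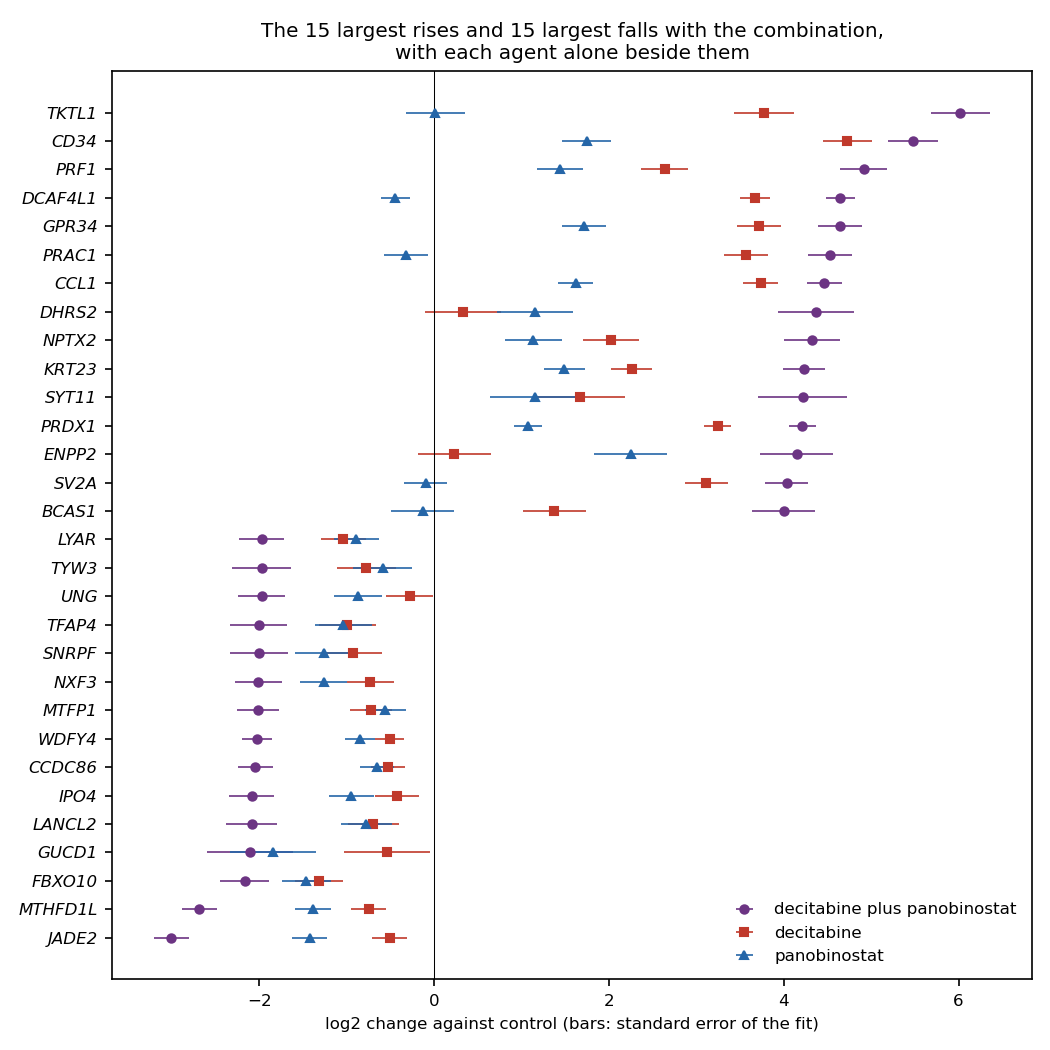
Change against control (log2) of the 15 protein-coding genes that rose most and the 15 that fell most with decitabine plus panobinostat (D+P), beside the change with decitabine (D) and with panobinostat (P) alone; points are fitted changes and bars are SE, and all 3 comparisons share the control arrays. TKTL1 reached 6.02 with the combination, 3.78 with decitabine and 0.01 with panobinostat, and JADE2 reached -3.01, -0.51 and -1.43.

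Some germline genes rose strongly and most did not pass the test. Of 35 measured genes of a list of germline genes kept silent by promoter methylation, 13 were called higher and none lower, against 11.2% and 12% of all genes. Their median change was 0.16, beside -0.02 over all genes. With array medians set equal it was -0.01, beside -0.19 over all genes. In 26 of the 35 the control mean lay below the table median. MAEL, which guards germ cells against transposons through the piRNA pathway, had 8.54, 7.13 and 7.97 in the combination arrays and 3.94, 4.02 and 3.81 in the control arrays, a 15.5-fold rise (3.96 ± 0.25, adjusted p = 1.23e-08). DAZL, which binds RNA in germ cells, had 7.33, 7.30 and 7.11 in combination-treated cells and 4.39, 4.0 and 3.75 in control cells, a 9.17-fold rise. In both genes the combination arrays lay wholly above the controls. GCNA, a nuclear protein of germ cells that protects them from DNA-protein crosslinks, rose by 3.40, HORMAD1, which organises the axis of meiotic chromosomes, by 3.04, and DPPA3, a maternal factor that limits DNA methylation in the early embryo, by 3.32. DDX4, the RNA helicase Vasa, changed by -0.02 (adjusted p = 0.937) and PIWIL1, a piRNA-binding protein, by -0.32 (adjusted p = 0.21).

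Of 7 measured cancer-testis antigen genes, 5 were called higher and none lower, with a median of 0.70. Without combination replicate 3 the count was 3. PRAME, an antigen and repressor of retinoic acid signalling, had 8.55, 8.70 and 9.04 in combination-treated cells and 5.89, 5.92 and 4.86 in control cells. The groups did not overlap, and the rise was 9.23-fold (3.21 ± 0.23, adjusted p = 5.16e-08). CTAG1A, which encodes the antigen NY-ESO-1, had 5.86, 4.74 and 4.73 in combination-treated cells and 3.53, 3.92 and 3.67 in control cells (1.41, adjusted p = 0.000761). The signal of CTAG1A cannot be told apart from that of its near-identical copy. CTAG2 changed by 0.30 (adjusted p = 0.127). Of 10 imprinted genes, 2 were called higher and 1 lower, beside 11.2% and 12% of all genes, with a median of -0.12. PEG10, a retrotransposon-derived gene expressed from the paternal copy, rose by 2.96 and PLAGL1 fell by 0.79. The signal of PEG10 was 7.32, 7.06 and 6.95 in combination-treated cells, against 4.09, 4.10 and 4.25 in control cells.

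Interferon effector genes were called higher in 20 of 31 measured members and lower in 2, with a median change of 0.80, or 0.63 with array medians set equal. IFI44L, a feedback regulator of the antiviral response (1:78620448-78646145), had 6.97, 5.93 and 7.10 in the combination arrays and 3.56, 3.58 and 3.87 in the control arrays, a 7.98-fold rise (3.00 ± 0.26, adjusted p = 4.49e-07). Combination replicate 2 of IFI44L was about 1 below the other two and still above every control. SLFN5, a member of the Schlafen family, had 8.91, 8.76 and 8.84 in combination-treated cells, against a wide range of 4.89 to 6.61 in control cells (2.99 ± 0.31). IFIT5, which binds viral RNA ends, rose by 2.83, and IFIT3 rose by 1.77. SAMD9 and SAMD9L, neighbouring genes that restrain viral translation and cell growth, rose by 1.86 and 1.69. IFITM1, which blocks virus entry, changed by 0.42 (adjusted p = 0.133), and MX2, which blocks nuclear import of viral genomes, by -0.59 (adjusted p = 0.349) with combination and control arrays overlapping.

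Upstream of these effectors, 11 of 28 genes for nucleic acid sensing and interferon signalling were called higher and 1 lower, with a median of 0.24. By role, the higher calls were 5 of 11 sensors, 2 of 5 adaptors and kinases, 3 of 8 transcription factors and 1 of 4 interferon or receptor genes. RIGI, the cytosolic sensor of RNA with a triphosphate end, had 10.10, 9.79 and 9.85 in combination-treated cells and 7.33, 7.97 and 7.76 in control cells (2.22 ± 0.15, adjusted p = 4.72e-08). IRF9, the DNA-binding subunit of the interferon-activated factor ISGF3, had 8.03, 7.24 and 7.35 in combination-treated cells and 5.04, 4.82 and 4.36 in control cells (2.80 ± 0.30). Neither gene had overlapping arrays. IFIH1, the sensor of long double-stranded RNA, rose by 1.35, DHX58, a regulator of both sensors, by 0.89 and IRF7, the factor that drives interferon genes, by 1.51. STING1, the adaptor of DNA sensing, rose by 0.67. TLR3, an endosomal sensor of double-stranded RNA, changed by 0.24 (adjusted p = 0.445), and TLR7 by -0.47 (adjusted p = 0.136).

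Monocyte and macrophage markers were called higher in 12 of 32 and lower in 2. Their median was 0.15, or -0.02 with array medians set equal (-0.19 over all genes). In bulk RNA, more cells of a type and more RNA per cell cannot be told apart. LYZ, which encodes lysozyme, had 9.26, 9.88 and 9.56 in combination-treated cells and 7.45, 7.05 and 7.48 in control cells (2.24 ± 0.19, adjusted p = 4.22e-07). TREM1, an activating receptor of monocytes and neutrophils, had 7.02, 7.01 and 7.0 in combination-treated cells and 3.58, 3.85 and 3.92 in control cells, a 9.39-fold rise. Both genes separated the groups, TREM1 with the tighter combination arrays. TYROBP, the signalling adaptor of such receptors, rose by 2.37, CD86, a costimulatory ligand, by 2.30, CSF1R, the receptor for macrophage colony-stimulating factor, by 2.01, S100A9 by 1.85 and CX3CR1 by 1.53. CD36, a scavenger receptor, changed by 0.19 (adjusted p = 0.603) and CD14 by -0.12 (adjusted p = 0.408). SPI1, which encodes the myeloid factor PU.1, had 6.24, 6.20 and 5.93 in combination-treated cells, against 6.71, 7.17 and 7.03 in control cells (-0.85, adjusted p = 0.0118). That call was lost without control replicate 2 (adjusted p = 0.0538) and without combination replicate 3 (adjusted p = 0.0524).

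Granulocyte genes were called higher in 3 of 19 and lower in 4, beside 11.2% and 12% of all genes. MPO fell by 0.94, CSF3R, the receptor for granulocyte colony-stimulating factor, by 1.85 and the chemokine receptor gene CXCR2 by 1.28. FPR2, a formyl peptide receptor, rose by 1.26 and CEACAM1, an adhesion molecule, by 1.11. PRTN3, the protease 3 of primary granules, had 4.22, 4.96 and 4.10 in combination-treated cells and 4.89, 4.26 and 4.59 in control cells, with overlapping groups (-0.16, adjusted p = 0.776).

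Stem and progenitor genes were called higher in 8 of 20 and lower in 1, with a median of 0.22. Besides CD34, GATA2, a transcription factor of stem and progenitor cells, had 6.30, 6.40 and 6.30 in combination-treated cells and 3.17, 3.60 and 4.06 in control cells (2.72 ± 0.24, adjusted p = 6.64e-07). The control arrays of GATA2 varied more than the combination arrays, and the groups stayed apart. ANGPT1, a ligand that maintains stem cells, rose by 1.61, PROM1 by 1.39 and ERG, a transcription factor of stem cells, by 1.23. FLT3 changed by 0.10 (adjusted p = 0.812) and KIT by -0.63 (adjusted p = 0.19).

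Several markers of other lineages rose. Of 24 T and NK cell markers, 10 were called higher and none lower, with a median of 0.31 and a mean list signal of 4.84 to 4.87 in the combination arrays and 4.11 to 4.13 in the control arrays. Besides PRF1, the T cell adaptor gene LAT rose by 2.73, the kinase gene LCK by 2.10, the adhesion receptor gene CD2 by 1.88 and NCR3, an activating receptor gene of NK cells, by 1.30. CD8A changed by 0.03 (adjusted p = 0.967) and CD7 by 0.06 (adjusted p = 0.91). Of 11 B cell markers, 3 were called higher and 1 lower, beside 11.2% and 12% of all genes. CD22, an inhibitory receptor of B cells, had 8.52, 8.52 and 8.96 in combination-treated cells and 5.24, 5.56 and 5.62 in control cells, a 9.16-fold rise. CD24 rose by 2.49 and EBF1, a B cell transcription factor, by 1.60, while PAX5, the defining B cell factor, changed by -0.54 (adjusted p = 0.0788). The mean signal of the B cell list was 4.86 to 4.88 in the combination arrays and 4.16 to 4.30 in the control arrays.

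The remaining lineage lists are read beside 11.2% of all genes called higher and 12% called lower. Erythroid genes were called higher in 2 of 8 and lower in 1, megakaryocyte genes higher in 2 of 10 and lower in 1, and eosinophil and mast cell genes higher in 2 of 12, among them HDC, the histamine-forming decarboxylase (2.42). Epithelial and stromal markers were called higher in 5 of 24, and neuronal genes in 1 of 17. VIM, the intermediate filament of mesenchymal and blood cells, rose by 2.63 and PECAM1, an adhesion molecule of endothelium and monocytes, by 1.71. The mean list signal was 4.09 to 4.24 in the combination arrays and 3.77 to 3.83 in the control arrays for epithelial and stromal markers, and 3.93 to 3.96 in the combination arrays and 3.75 to 3.90 in the control arrays for neuronal genes. The part of any admixed cells in these changes was not tested.

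CD274, which encodes the checkpoint ligand PD-L1 (9:5450542-5470554), had 6.83, 6.71 and 7.14 in combination-treated cells and 4.41, 5.16 and 4.32 in control cells (2.27 ± 0.31, adjusted p = 4.82e-05), with no overlap. Over 22 NKG2D ligand and checkpoint genes, 4 were called higher and none lower, beside 11.2% and 12% of all genes, with a median of 0.18. NECTIN2, a ligand of inhibitory and activating receptors of T and NK cells, rose by 1.22, while the stress ligand genes MICA (0.01, adjusted p = 0.967) and MICB (-0.27, adjusted p = 0.0686) were not called. Of 7 genes of MHC class I presentation 1 was called higher and 3 lower, with a median of -0.23, the trimming peptidase ERAP2 with -0.74, and B2M, the light chain of class I molecules, changed by 0.51 (adjusted p = 0.185). The classical HLA genes are not on probe sets with a single symbol here.

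Chemokines and their receptors were called higher in 11 of 34 and lower in none. Their median was 0.13, or -0.04 with array medians set equal (-0.19 over all genes). CXCL11, an interferon-induced ligand of CXCR3, had 7.98, 6.99 and 6.89 in combination-treated cells and 3.38, 3.86 and 3.56 in control cells, a 12.8-fold rise (3.68 ± 0.31, adjusted p = 3.94e-07). The lowest combination array of CXCL11 was about 3 above the highest control array. CCR7, the receptor that guides cells to lymph nodes, rose by 2.85, CCL2, the main monocyte attractant, by 1.25 and C5AR1, the receptor for complement C5a, by 1.22. CCL3 changed by 0.13 (adjusted p = 0.753) and CCL4 by 0.07 (adjusted p = 0.831).

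Genes of lipid mediators were called higher in 7 of 16 and lower in 1, with a median of 0.30. PTGS2, the inducible cyclooxygenase, had 8.20, 7.93 and 7.95 in combination-treated cells and 4.25, 4.37 and 4.26 in control cells, a 13.3-fold rise with no overlap (3.73 ± 0.28, adjusted p = 9.26e-08). ALOX5, which starts leukotriene synthesis, rose by 1.31, LTA4H, which forms leukotriene B4, by 0.89, PTGER4, a prostaglandin E2 receptor, by 1.22 and HPGD, which degrades prostaglandins, by 1.23. PTGS1, the constitutive cyclooxygenase, changed by 0.33 (adjusted p = 0.105). Toll-like receptors and lectins were called higher in 4 of 16 and lower in 2, beside 11.2% and 12% of all genes. TLR6 and TLR1, which each pair with TLR2, rose by 2.06 and 1.89 and SIGLEC9, an inhibitory sialic acid receptor, by 2.58, while CD180, a Toll-like homologue, fell by 1.57. TNF rose by 0.68 and NFKB1, the p105 precursor, fell by 0.62.

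MYC and most genes of the ribosome, mitochondrial and nucleotide lists fell. MYC, the growth-promoting transcription factor, had 9.19, 9.32 and 8.76 in the combination arrays and 10.74, 10.61 and 10.79 in the control arrays (-1.62 ± 0.22, adjusted p = 4.64e-05). The highest combination array of MYC lay more than 1 below the lowest control array. Of 24 measured genes of MYC and ribosome biogenesis, 18 were called lower and 1 higher, with a median of -0.89, against 12% lower and a median of -0.02 over all genes. The gene called higher was MXD4 (1.42), which competes with MYC for MAX, while MAX itself changed by -0.05 (adjusted p = 0.941). Among genes of ribosome assembly and RNA polymerase I, 14 of 15 were called lower with a median of -1.10. NOP16, a nucleolar protein, fell by 1.95, RRS1, an assembly factor of the large subunit, by 1.79 and NCL, which encodes nucleolin, by 1.59.

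Cytosolic ribosomal protein genes were called lower in 15 of 27 and higher in none, with a median of -0.53. RPL14 had 7.23, 6.90 and 6.74 in combination-treated cells and 8.59, 8.87 and 8.71 in control cells, a fall by 1.77. RPS14 fell by 1.5, RPS7 by 1.45 and RPL29 by 1.43. RPS15 (0.18, adjusted p = 0.424) and RPS16 (0.06, adjusted p = 0.776), with signals near 12 in both groups, were not called. Genes of mitochondrial translation and import were called lower in 31 of 36 and higher in none, with a median of -0.85. All 14 import genes and 17 of 22 mitochondrial ribosome genes were among them. TIMM9, a chaperone of the intermembrane space, fell by 1.47, TIMM44, which anchors the import motor, by 1.19, MRPL4 by 1.22 and MRPL37 by 1.19. MRPL13 (-0.55, adjusted p = 0.22) and MRPL16 (-0.49, adjusted p = 0.143) were not called.

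Genes for folate-bound carbon units, serine and nucleotide synthesis were called lower in 17 of 19 and higher in none, with a median of -0.92. PSAT1, the aminotransferase of serine synthesis, had 9.73, 9.79 and 9.94 in combination-treated cells and 11.28, 11.21 and 11.40 in control cells (-1.48 ± 0.11, adjusted p = 7.46e-08). The 3 serine synthesis enzymes fell together, with PSPH by 0.92 and PHGDH by 0.72. PFAS, of purine synthesis, fell by 1.69, DHODH, of pyrimidine synthesis, by 1.27, CTPS1, which forms CTP, by 1.26 and TYMS, which forms thymidylate, by 1.06. SHMT1 (0.17, adjusted p = 0.444) and SHMT2 (-0.33, adjusted p = 0.526), which move carbon units from serine to folate, were not called.

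Replication genes were called lower in 21 of 22 and higher in none, with a median of -0.59. GINS3, a subunit of the replicative helicase, fell by 1.59, DUT, which removes dUTP, by 1.40, CDC45, the helicase activator, by 1.12, DTYMK by 0.94 and MCM7 by 0.82. The exception was GINS4 (0.28, adjusted p = 0.153). Genes of G2 and mitosis did not move as a list: 5 of 30 were called lower, 3 without control replicate 3, and none higher, with a median of -0.01. MAD2L1, a spindle checkpoint protein, fell by 1.13, WEE1, which holds back mitotic entry, by 0.76 and CCNA2, cyclin A2, by 0.65. CCNB1 and CCNB2, the mitotic B cyclins, changed by 0.08 (adjusted p = 0.753) and less than 0.01 (adjusted p = 0.99). CDC25A, a phosphatase that drives S phase, fell by 1.21 and CDK4 by 0.88, and RBL2, a retinoblastoma relative, rose by 0.56. The cyclin D genes CCND1 (-0.34, adjusted p = 0.182) and CCND2 (-0.18, adjusted p = 0.464) were not called. Repair genes were called lower in 9 of 11, among them RECQL4, a helicase (-1.39), and RAD54L, of homologous recombination (-1.10).

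A few genes of cell death rose. In a list of BCL2 family and death receptor genes, 5 of 18 were called higher and 1 lower, beside 11.2% and 12% of all genes. The median of the list was 0.12, or -0.04 with array medians set equal (-0.19 over all genes). BIK, a BH3-only killer protein, had 7.36, 7.47 and 7.44 in combination-treated cells and 4.38, 5.88 and 4.45 in control cells (2.52 ± 0.39, adjusted p = 0.000149). Control replicate 2 of BIK stood above the other control arrays and still below every combination array. BMF, another BH3-only gene, rose by 1.60, APAF1, the core of the apoptosome, by 0.79, BAK1 by 0.58 and the pro-survival gene BCL2A1 by 1.11. MCL1 changed by 0.26 (adjusted p = 0.201) and BCL2L1 by -0.27 (adjusted p = 0.239). TP53INP1, a p53 target that promotes cell death and autophagy, had 6.95, 5.38 and 6.79 in combination-treated cells and 3.58, 3.37 and 3.26 in control cells (2.97 ± 0.39, adjusted p = 3.59e-05). Of 9 p53 targets, 2 were called higher and 1 lower, beside the same shares of all genes.

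Metallothioneins, small proteins that bind zinc and copper, were called higher in 5 of 11 and lower in none, with a median of 0.61. MT1H had 7.96, 8.06 and 7.86 in combination-treated cells and 4.80, 4.72 and 4.81 in control cells, a 9.09-fold rise (3.18 ± 0.17, adjusted p = 3.9e-09). MT1E rose by 2.33, MT1F by 0.84 and MT1X by 0.80, while MT1M changed by -0.04 (adjusted p = 0.869). These genes are close copies, and signal shared between them cannot be told apart. Lysosomal genes were called higher in 9 of 18 and lower in none, with a median of 0.40; the count was 5 without combination replicate 2 and 5 without combination replicate 3. GRN, the precursor of granulins, rose by 1.66, PSAP, the precursor of saposins, by 1.39, NEU1, a sialidase, by 0.96 and CTSD, cathepsin D, by 0.95. Heat shock chaperones were split, with 4 of 11 called higher and 4 lower: HSPA1A rose by 1.45 and the co-chaperone gene BAG3 by 1.40, and the mitochondrial chaperonin gene HSPD1 fell by 1.55 and HSPH1 by 0.99.

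Of 10 genes of cholesterol efflux and lipid handling 1 was called higher and 3 lower, with a median of -0.09. FASN, the fatty acid synthase, had 7.55, 6.92 and 7.03 in combination-treated cells and 9.04, 9.20 and 9.03 in control cells (-1.92 ± 0.14, adjusted p = 7.91e-08). ACACA, which supplies its malonyl units, fell by 1.76 and SCD, the desaturase, by 1.35, whereas PLIN2, which coats lipid droplets, rose by 1.45. Of 14 cholesterol synthesis genes 7 were called lower and none higher, with a median of -0.45. The count was 4 without control replicate 2 and 4 without combination replicate 3. MVK fell by 1.00 and HMGCS1 by 0.58, and SQLE changed by 0.12 (adjusted p = 0.419). Of 12 glycolysis genes 5 were called lower, among them GAPDH, which had 8.24, 7.94 and 8.01 in combination-treated cells and 8.99, 9.02 and 8.84 in control cells. Cytoskeleton genes were called higher in 4 of 10: TPM4, a tropomyosin, had 10.84, 10.51 and 10.72 in combination-treated cells and 8.19, 8.21 and 8.17 in control cells (2.5 ± 0.10, adjusted p = 8.58e-11), and GSN, the actin-severing gelsolin, rose by 2.60.

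**Figure D4:**
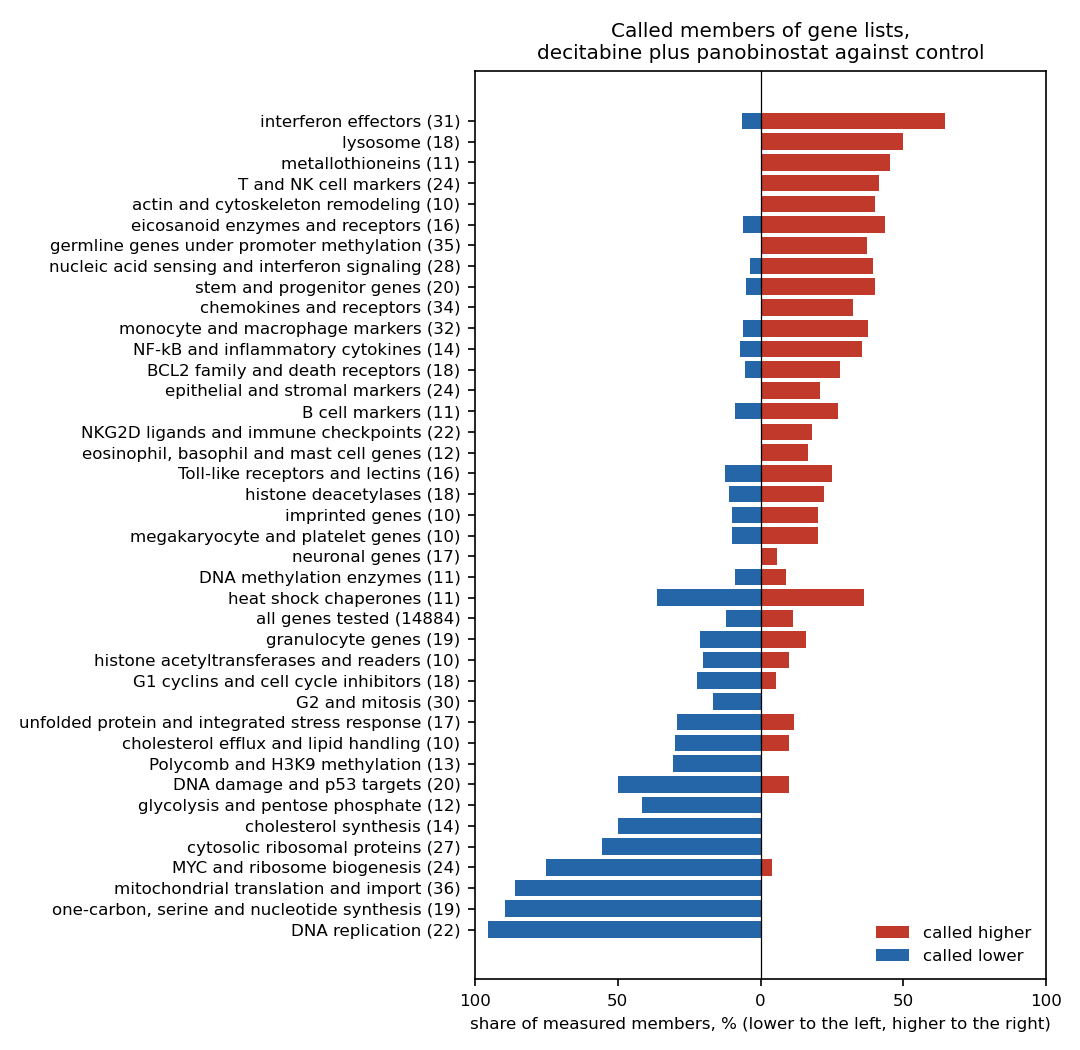
Share of the measured members called higher (to the right, percent) and lower (to the left, percent) in combination-treated cells against control cells, for each gene list with at least 10 measured members. The number measured is in parentheses and all genes tested form one row. Smaller lists, such as the cancer-testis antigens, are not drawn. Interferon effectors reach furthest to the right among the larger lists and replication, nucleotide and mitochondrial lists furthest to the left, beside 11.2% higher and 12% lower over all genes.

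Some genes of the drug targets themselves were called and others were not. DNMT1, the maintenance methyltransferase that decitabine traps, had 10.50, 10.80 and 10.68 in the combination arrays and 10.79, 10.71 and 10.94 in the control arrays. The groups overlapped, and the difference was -0.15 (95% confidence interval -0.38 to 0.07, adjusted p = 0.379). DNMT3A, a de novo methyltransferase, changed by 0.30 (adjusted p = 0.635) and UHRF1, which guides DNMT1 to newly copied DNA, by -0.06 (adjusted p = 0.841). DNMT3B, the other de novo enzyme, had 7.82, 8.42 and 8.45 in combination-treated cells and 6.70, 6.93 and 7.36 in control cells, a 2.35-fold rise (adjusted p = 0.000153). Over 11 DNA methylation enzymes 1 was called higher and 1 lower.

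Of 18 histone deacetylase genes 4 were called higher and 2 lower, beside 11.2% and 12% of all genes. Their median was 0.08, or -0.09 with array medians set equal (-0.19 over all genes). By class, 1 of 4 class I genes was called lower. Of 6 class II genes 2 were called higher and 1 lower, and of 7 sirtuins 1 was called higher. HDAC5 and HDAC9, of class II, rose by 1.36 and 1.35, HDAC11, the single class IV gene, by 1.05 and the sirtuin gene SIRT7 by 0.54. HDAC4 fell by 1.09. The class I genes HDAC1 (0.18, adjusted p = 0.242), HDAC3 (0.02, adjusted p = 0.951) and HDAC8 (0.09, adjusted p = 0.792) were not called. HDAC2 had 7.25, 8.02 and 7.42 in combination-treated cells and 7.97, 8.53 and 8.27 in control cells, with overlapping groups (-0.69, adjusted p = 0.0193). The call of HDAC2 was lost without combination replicate 1 (adjusted p = 0.101), combination replicate 3 (0.0735), control replicate 2 (0.0946) or control replicate 3 (0.0541). A further probe set of HDAC2 changed by -0.47 (adjusted p = 0.00158 in limma over all probe sets with a single symbol). The histone acetyltransferase genes KAT2A and KAT8 fell by 1.5 and 1.07. SUV39H1, which methylates lysine 9 of histone H3, had 6.86, 6.84 and 6.80 in combination-treated cells and 8.84, 8.66 and 8.86 in control cells (-1.95 ± 0.14, adjusted p = 5.56e-08). SUV39H2 fell by 0.90 and EHMT2 by 0.57, whereas EZH2 of Polycomb changed by 0.15 (adjusted p = 0.363). Of the genes that handle decitabine, the deaminase CDA rose by 0.98 and SAMHD1, which cleaves deoxynucleotide triphosphates, by 1.29, the deaminase DCTD fell by 0.62, and DCK, which phosphorylates the drug, changed by -0.03 (adjusted p = 0.949).

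The combination was next set against each drug alone. All comparisons with control share the 3 control arrays, so each one's values are given side by side. Decitabine alone changed 590 genes (3.96%), with 2.57% of all genes higher and 1.39% lower. Panobinostat alone changed 1100 (7.39%), with 3.92% higher and 3.47% lower. Compared directly with decitabine alone, combination-treated cells differed in 2317 genes (15.6%), 1140 (7.66%) higher and 1177 (7.91%) lower. At least 2-fold, 356 (2.39%) were higher and 230 (1.55%) lower. Compared with panobinostat alone they differed in 1421 genes (9.55%), 806 (5.42%) higher and 615 (4.13%) lower, and at least 2-fold 318 (2.14%) were higher and 94 (0.632%) lower. The count against panobinostat depended on single arrays: it was 882 with 343 lower genes without panobinostat replicate 1, and 384 genes were lower without combination replicate 1.

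Genes differed in which drug alone already moved them. The germline genes MAEL, GCNA and HORMAD1 rose by 3.96, 3.40 and 3.04 with the combination, by 3.54, 3.42 and 3.48 with decitabine and changed by 0.04, -0.90 and -0.24 with panobinostat. Their differences between the combination and decitabine alone were 0.42 (adjusted p = 0.318), -0.03 (0.959) and -0.44 (0.3). CD22 showed the opposite order, with 3.20 in the combination, 0.11 with decitabine and 3.40 with panobinostat, and a difference of -0.21 from panobinostat alone (adjusted p = 0.741). For CD34 the combination exceeded panobinostat by 3.74 (adjusted p = 3.01e-07) and decitabine by 0.75 (adjusted p = 0.0914).

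Other genes were higher with both drugs than with either. TKTL1 had 9.56, 8.96 and 9.49 with the combination, 7.62, 6.52 and 7.14 with decitabine and 3.30, 3.44 and 3.26 with panobinostat. The combination exceeded decitabine by 2.24 (adjusted p = 0.000333) and panobinostat by 6.01 (adjusted p = 1.07e-08). DHRS2 had 8.38, 7.98 and 8.10 with the combination, 4.43, 3.86 and 4.06 with decitabine and 4.72, 5.00 and 5.10 with panobinostat, and neither drug alone was called against control (adjusted p = 0.792 and 0.134). Its excess was 4.04 over decitabine (adjusted p = 2.68e-05) and 3.21 over panobinostat (adjusted p = 0.000181). CXCL11 had 7.98, 6.99 and 6.89 with the combination, 5.00, 4.31 and 3.90 with decitabine and 3.33, 3.76 and 3.48 with panobinostat, an excess of 2.88 and 3.76. IFI44L exceeded decitabine by 1.97 and panobinostat by 2.89, TREM1 by 2.60 and 2.11, RIGI by 1.55 and 1.5, PRF1 by 2.28 and 3.48 and DPPA3 by 2.38 and 3.28, all called.

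Falls beyond both drugs were also found. JADE2 had 4.95, 5.12 and 4.89 with the combination, 7.43, 7.51 and 7.51 with decitabine and 6.95, 6.12 and 6.63 with panobinostat, with no overlap of the combination with either. It was 2.5 below decitabine (-2.5, adjusted p = 2.02e-06) and 1.58 below panobinostat (-1.58, adjusted p = 8.11e-05). MTHFD1L differed by -1.94 and -1.30, SUV39H1 by -1.61 and -1.12 and CCDC86 by -1.52 and -1.39 from decitabine and panobinostat, all called. PRTN3 and ATF5 were lower with the combination than with decitabine alone and not lower than with panobinostat alone. PRTN3 had 4.22, 4.96 and 4.10 with the combination, 7.68, 7.34 and 7.83 with decitabine and 3.81, 3.85 and 4.64 with panobinostat, so the combination was far below decitabine alone (-3.19, adjusted p = 3.6e-06). ATF5, a stress-response factor, rose by 1.47 with decitabine and fell by 1.45 with panobinostat, and differed by -2.16 between the combination and decitabine (adjusted p = 0.000103). CD36 lay between the drugs: it was higher by 0.85 than with decitabine and differed by -1.03 from panobinostat (adjusted p = 0.00996 and 0.00449).

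Decitabine plus valproic acid, the other pairing with a deacetylase inhibitor, changed 2524 genes (17%) against control, with 8.9% of all genes higher and 8.06% lower. Direct comparison of the pairings called 97 genes (0.652%), 55 (0.37%) higher and 42 (0.282%) lower with panobinostat. At least 2-fold, 23 (0.155%) were higher and 5 (0.0336%) lower. This count ran from 26 without replicate 1 of decitabine plus valproic acid to 109. Whether the doses of the inhibitors are comparable is not known, since the labels give no unit. LAIR2, a soluble collagen receptor, had 6.49, 7.08 and 6.69 with decitabine plus panobinostat and 4.58, 4.37 and 4.70 with decitabine plus valproic acid (2.20, adjusted p = 0.00843). PMEL, the fibril protein of melanosomes, was 1.90 higher (adjusted p = 0.0123), CRLF2, a cytokine receptor chain, 1.75 higher (adjusted p = 0.00123) and TREM1 1.20 higher (adjusted p = 0.00756). Leaving out any 1 of the 6 arrays ended none of these 4 calls. In a fit of those 6 arrays alone LAIR2 and CRLF2 kept theirs (adjusted p = 0.0203 each), while PMEL (0.25) and TREM1 (0.225) lost theirs, and 2 genes were called in all. The calls of CCR7 (1.82, adjusted p = 0.0201), MTHFD1L (-1.04, adjusted p = 0.0291) and MIR17HG (-1.35, adjusted p = 0.0357) were each lost without at least 1 array, with adjusted p of up to 0.0856, 0.123 and 0.13. JADE2 differed by less than 0.01 between the pairings (adjusted p = 1).

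Of the protein-coding genes 12.7% were called higher and 13.9% lower. Of 1398 long non-coding RNA genes 7.87% were called higher and 5.22% lower, and of 1072 microRNA genes 14 were higher and 24 lower. AFAP1-AS1, an antisense RNA at 4:7754090-7778928, had 8.56, 8.59 and 8.53 in combination-treated cells and 3.87, 3.74 and 3.56 in control cells, a 28.6-fold rise (4.84 ± 0.14, adjusted p = 4.3e-12). PROSER2-AS1 rose by 4.35, LINC00891 by 4.04 and BCAR3-AS1 by 3.44. MIR544B had 3.99, 4.29 and 3.88 in combination-treated cells and 5.72, 7.02 and 6.36 in control cells, so it fell by 2.31. It lies within the span of the gene UMPS, and whether its probe set also reads UMPS RNA was not tested. MIR17HG, the host gene of the miR-17 to miR-92 cluster that MYC activates, fell by 2.11, MIR4521 by 1.96 and DANCR, a host of a small nucleolar RNA, by 1.91.

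Promoter sequence was read in windows from 250 bases before to 50 after the RefSeq start, which 10749 of the 14884 genes had. For 2664 genes with several windows, the first one listed was read. The median number of CpGs was 21 in 504 genes at least 2-fold higher, 26 in 398 genes at least 2-fold lower and 23 in all genes with a window. In the 118 genes with a window that were at least 4-fold higher it was 12. Windows with 5 CpGs or fewer made up 19.8% of those at least 2-fold higher, 6.28% of those at least 2-fold lower and 17.6% of all. Searched on both strands, the response element core shown above was in 10 of 16 called interferon effectors with a window, and in 5.75% of genes at least 2-fold higher, 2.76% of those at least 2-fold lower and 2.94% of all. CACGTG was in 20.1% of genes at least 2-fold lower, 7.94% of those at least 2-fold higher and 9.02% of all, and in 6 of 12 called genes of the MYC list. The motif of NRF1, GCGCAT followed by GCGC, was in 0.595% of the higher, 1.51% of the lower and 1.99% of all genes, and the cyclic AMP response element TGACGTCA in 2.38%, 3.52% and 2.62%. These counts describe letters in a window and no test was made of them.

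**Figure D5:**
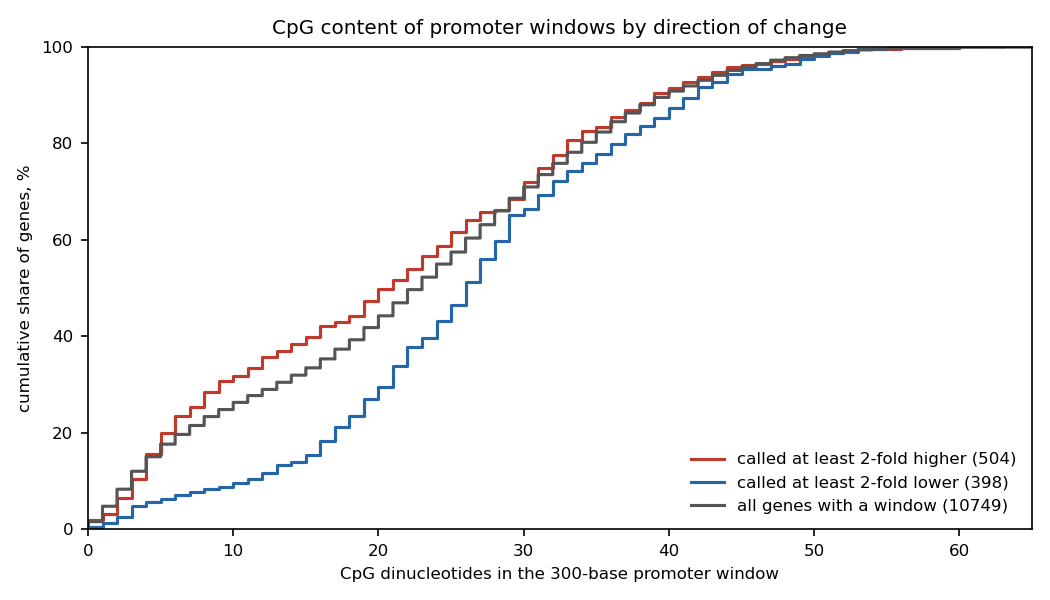
Cumulative share of genes (percent) by the number of CpG dinucleotides in the 300-base window around the start, for genes at least 2-fold higher (504), genes at least 2-fold lower (398) and all genes with a window (10749). The curve of the higher genes lies to the left of that of the lower genes, with medians of 21 and 26 CpGs.

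A gene with several probe sets was read by the one with the highest mean signal over all arrays. The 779 such genes had 1214 further probe sets. Of 291 further probe sets whose gene was called, 262 changed in the same direction, 140 of them were called in it and 1 was called in the opposite one: SIAE, a sialic acid esterase chosen after its values were seen, changed by 1.33 on the chosen probe set and by -0.57 on the other. For some genes named above a further probe set gave a smaller change: 0.81 and 0.85 against 2.63 for VIM, 0.66 against 2.24 for LYZ, 0.30 against 1.60 for BMF, -1.07 against -1.96 for MIR4521, -0.05 against -1.95 for SUV39H1 and 0.03 against -1.09 for HDAC4.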

How the data were processed

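RNA of 18 U937 samples, 3 in each of 6 groups, was hybridised to Affymetrix Human Gene 2.0 ST arrays. The authors deposited log2 signals per probe set, made with RMA per the submitters' processing notes; its version and settings are not given in the sources used here. RMA equalises the distribution of signals between arrays, so a change common to most genes would be removed. Probe sets were named through the platform annotation, 16098 with 1 symbol and 32128 with none, and positions and promoter windows come from RefSeq GRCh38.p14. One probe set per gene was tested, the one with the highest mean.

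Groups were taken from the sample titles. The deposited log2 values were fitted with limma 3.58.1 in R 4.3.3 as 6 group means on all 18 arrays (12 residual degrees of freedom), and p-values were adjusted over 14884 genes by Benjamini-Hochberg, threshold 0.05. The 3 arrays per group limit the precision. Same-numbered arrays did not deviate together (r -0.042 to -0.032 between combination and control), so replicate numbers were not used as pairs. In simulated data of 14884 genes for the combination against control, 67 genes were given a 1.5-fold, 67 a 2-fold and 66 a 4-fold change. Of these, 44.8%, 79.1% and 100% were recovered, with 9 false calls among 158. Far fewer genes changed there than the 3447 called in the data. The adjustment depends on that number, so these rates do not carry over to the data.

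The members, gene lists and tests were chosen with earlier results of these data known. Named are the 15 largest rises and falls among called protein-coding genes with separated arrays, up to 6 called and 2 other members of each list, a set of target and marker genes, the 5 largest changes each way beyond both single agents, against decitabine plus valproic acid, and among non-coding genes. CEBPA, CEBPB, CDKN1A, CDKN2B, CDKN2C and ACTB are not on a single-symbol probe set. Near-identical copies (CTAG1, GAGE, MT1 and HSPA1 genes) may share signal. Alternatives were other probe set rules, all probe sets, a filter on dim genes, the 6 compared arrays alone, a replicate block, an intensity trend, median centring, and leaving out each array.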

Additional observations from a re-analysis of the deposited data

Results flagged for a closer look

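Signal outside the gene-level comparison was found in the probe sets without a gene symbol. Of 32128 such probe sets, 3620 (11.3%) were called by limma in combination-treated cells against control cells when tested with all probe sets of the array, 1803 higher and 1817 lower. At least 2-fold, 751 were higher and 461 lower, with a largest rise of 5.98 and a largest fall by 3.98 on the log2 scale. They are unnamed here, and which transcripts they read was not examined.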

How the results depend on the processing

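No named gene that was called changed direction when probe sets were averaged, arrays were centred or 1 array was left out. The other alternatives keep the group means of the chosen probe set, so they could not change a direction. Centring the arrays on their median turned the sign of the median change of 14 gene lists, among them the germline, monocyte, histone deacetylase and chemokine lists. Every change moved by -0.17 with it, and the median over all genes went from -0.02 to -0.19. It gave 506 genes at least 2-fold higher and 754 lower, against 666 and 478. Counts for the combination against control stayed within 1.5 times of the reported ones, except where all 48226 probe sets were tested (7015, with 3463 higher, 3552 lower and 2386 at least 2-fold) and where arrays were centred on their median (3325 lower). In those settings the other comparisons gave 4279, 2285 and 1994 (all, higher, lower) against decitabine, 2899, 1673 and 1226 against panobinostat and 195, 129 and 66 against decitabine plus valproic acid with all probe sets, and 1776 lower against decitabine and 1147 lower against panobinostat with centring. With the 6 compared arrays alone, limma called 938 genes against panobinostat, 353 lower. Against decitabine plus valproic acid it then called 2, both higher, and 0 lower, where 1458 genes had an unadjusted p below 0.05, 799 of them lower. Leaving out 1 array gave 2811 to 2973 called genes against control (1398 to 1455 higher, 1413 to 1542 lower, 1120 to 1177 at least 2-fold) and 2199 whichever array was left out. It gave 1675 to 1861 against decitabine, 882 to 1126 against panobinostat (539 to 661 higher, 343 to 465 lower) and 26 to 109 against decitabine plus valproic acid (16 to 58 higher, 7 to 51 lower). With the replicate number as a block, 3463, 2288, 1432 and 118 genes were called in the same 4 comparisons. Of 342 named genes, 251 were called, and 225 to 236 of these kept the call when 1 array was left out; the block ended the call of TRIM28 alone (adjusted p = 0.0509). The cause of these shifts was not tested, beyond the larger or smaller number of features and arrays in the fits. The 3 arrays per group limit which small changes can be called.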

Other observations

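Calls were found on each of chromosomes 1 to 22 and X. The share of genes called higher in combination-treated cells ran from 7.65% on chromosome 22 to 14.6% on chromosome 15, beside 11.2% of all genes. The share called lower ran from 8.79% on the X chromosome to 17.9% on chromosome 16, where 109 of 609 genes were lower and 59 higher, beside 12% of all genes. On chromosome 19, 138 of 1081 genes were higher and 102 lower. No test was made of these shares.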
